A study of Homo sapiens with 2 samples.

Results

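The genes described here are 9 sensors of foreign or misplaced nucleic acid and transcription factors of the interferon response: RIGI, IFIH1, DHX58, TLR3, CGAS, STING1, IRF1, IRF7 and IRF9. They were chosen by name, and every probe set (a group of short probes against 1 transcript) that the platform annotation assigned to exactly 1 of these symbols was taken. This gave 19 probe sets of the 54613 on the arrays that are not controls, and 9 of the 19775 genes that have a probe set of their own. The cells were SW620, an established human colorectal cancer line that was derived from a lymph node metastasis, grown in RPMI-1640 medium. A lentivirus delivered a short hairpin RNA against the transcription factor SOX2 to one culture (SOX2 knockdown) and a hairpin without a target to the other (mock knockdown), so both cultures carried a virus and a hairpin RNA. Each group held 1 Affymetrix array and no replicates, so differences were not tested, and the precision of every value is limited by the number of arrays. The series asks which genes SOX2 regulates in a colorectal cancer line. A sample description that speaks of mouse liver contradicts the other labels and was not followed.

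RIG-I, the product of RIGI, and MDA5, the product of IFIH1, are helicases that bind double-stranded RNA in the cytosol and pass the signal to the adaptor MAVS. LGP2, the product of DHX58, belongs to the same family but lacks the signalling domains and tunes the other members. TLR3 senses double-stranded RNA in endosomes, and cGAS senses DNA in the cytosol and makes a cyclic dinucleotide that activates STING. Both routes lead to interferon genes, and secreted interferon then acts through JAK kinases and STAT factors. IRF9 is the DNA-binding subunit of the complex that switches on interferon-stimulated genes, IRF7 amplifies type I interferon, and IRF1 is a factor induced by interferon gamma. Most of the 9 genes are themselves known to be induced by interferon.

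The interferon-stimulated response element and the gamma-activated site are the DNA elements through which interferon acts, so the start regions of the genes are shown first. Windows of 300 bases (250 before the gene start and 50 from it on, RefSeq, GRCh38.p14) were at hand for RIGI, IFIH1, TLR3, IRF1 and IRF9 and were searched on both strands for GAAA followed 2 bases later by GAAA, the core of the response element, for TTCNNNGAA, the core of the gamma-activated site, and for CATTGT, a core of SOX sites. The 4 windows that held a match are printed 5′ to 3′ from 250 bases before the start to the 10th base of the gene, with matches in capitals.
IFIH1: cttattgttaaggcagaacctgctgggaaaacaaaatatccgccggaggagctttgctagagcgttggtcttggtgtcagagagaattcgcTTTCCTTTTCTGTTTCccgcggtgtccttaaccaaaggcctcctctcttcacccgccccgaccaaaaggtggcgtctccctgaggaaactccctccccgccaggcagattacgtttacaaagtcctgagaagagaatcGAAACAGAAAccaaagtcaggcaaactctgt
TLR3: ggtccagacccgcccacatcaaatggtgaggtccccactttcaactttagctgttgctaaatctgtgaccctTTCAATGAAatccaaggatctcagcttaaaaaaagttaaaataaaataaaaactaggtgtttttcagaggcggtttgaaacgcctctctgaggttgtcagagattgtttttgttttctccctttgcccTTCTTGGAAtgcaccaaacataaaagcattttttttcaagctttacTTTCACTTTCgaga
IRF1: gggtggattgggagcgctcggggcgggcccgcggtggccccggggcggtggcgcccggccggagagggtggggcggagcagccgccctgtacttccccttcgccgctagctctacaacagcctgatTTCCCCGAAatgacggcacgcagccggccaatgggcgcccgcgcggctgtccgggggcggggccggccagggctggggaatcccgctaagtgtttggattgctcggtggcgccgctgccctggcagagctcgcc
IRF9: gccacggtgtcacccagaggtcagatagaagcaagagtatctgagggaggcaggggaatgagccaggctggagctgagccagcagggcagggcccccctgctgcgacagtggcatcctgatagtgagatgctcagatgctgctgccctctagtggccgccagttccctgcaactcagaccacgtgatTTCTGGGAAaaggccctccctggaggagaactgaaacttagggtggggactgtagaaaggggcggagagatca
The IFIH1 stretch lies at chr2:162318675-162318934 on the minus strand, that of TLR3 at chr4:186068906-186069165 on the plus strand, that of IRF1 at chr5:132490764-132491023 on the minus strand and that of IRF9 at chr14:24161015-24161274 on the plus strand. IFIH1 held 3 matches to the response element core, which begin 159, 153 and 21 bases before the start, and the first 2 overlap. TLR3 held 1 such match, 4 bases before the start and running across it, and 2 matches to the gamma-activated core, 178 and 50 bases before it. IRF1 and IRF9 held 1 gamma-activated core each, 124 and 63 bases before the start. RIGI held none of the 3 motifs, and the SOX core was in 0 of the 5 windows. Of 27305 such windows over all genes, 3.65% held the response element core, 7.94% the gamma-activated core and 11% the SOX core. Over the 10897 windows of genes that reached the intensity floor described below, these shares were 2.61%, 6.1% and 6.71%. A match describes letters in the window and does not show that a factor binds there.

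The values are RMA intensities on a linear scale. Each difference is the log2 value on the SOX2 knockdown array less that on the mock array. The median of all values, 68.5, served as the floor, and a value under it was treated as not distinguishable from background. Where the dimmer array lay under the floor, the fold was taken against the floor and is a bound. The level of a gene was taken from its brightest probe set over both arrays. Intensities of different probe sets are not on a common scale per molecule, so levels were not compared between genes. The median over all probe sets was 68.1 on the SOX2 knockdown array and 69.0 on the mock array. SOX2 itself stood at 20.9 on the SOX2 knockdown array and 2077 on the mock array at its brightest probe set, at least 30.3-fold lower. One other SOX2 probe set reached the floor, at 120 on the SOX2 knockdown array and 333 on the mock array, 2.76-fold lower. All 7 epithelial markers, EPCAM and KRT8 among them, reached the floor on both arrays and summed to 63084 on the SOX2 knockdown array and 50352 on the mock array, with VIL1, a protein of intestinal microvilli, lower at 867 on the SOX2 knockdown array and 2063 on the mock array. Of 6 leukocyte markers measured, CD14 and ITGAM reached the floor on the SOX2 knockdown array and ITGAM alone on the mock array. The 6 summed to 428 on the SOX2 knockdown array and 309 on the mock array. Within that sum CD14 stood at 156 and 43.6 in the same order, and ITGAM at 103 on both arrays. PTPRC, the common leukocyte antigen, was under the floor at 19.9 on the SOX2 knockdown array and 16.7 on the mock array. Of 3 markers of plasmacytoid dendritic cells, a main source of interferon in tissue, IL3RA alone reached the floor, and their sum was 212 on the SOX2 knockdown array and 222 on the mock array. Fibroblast markers summed to 502 on the SOX2 knockdown array and 547 on the mock array, and endothelial markers to 156 and 175 in the same order. No marker was listed at 0, since the lowest value on either array was 5.72. The part of other cells in the results below was not tested, and in RNA from whole cultures fewer cells of a type and less RNA per cell cannot be told apart.

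All 3 interferon regulatory factors passed 2-fold on the higher side in the SOX2 knockdown culture, at every probe set, with values above the floor on both arrays. IRF1 had an intensity of 568 on the SOX2 knockdown array and 241 on the mock array at its brighter probe set, 202531_at, a log2 difference of 1.24. Its other probe set, 238725_at, stood at 318 on the SOX2 knockdown array and 111 on the mock array, a log2 difference of 1.52. Both probe sets of IRF1 were therefore more than 2-fold higher, 2.36-fold and 2.86-fold. IRF7 stood at 301 on the SOX2 knockdown array and 136 on the mock array, a log2 difference of 1.15 or 2.22-fold. IRF9 stood at 394 on the SOX2 knockdown array and 108 on the mock array, a log2 difference of 1.87 or 3.65-fold. IRF7 and IRF9 each rested on 1 probe set of their own, so their difference has no second reading within the pair of arrays. A further probe set, 220788_s_at, was annotated to both RNF31 and IRF9 and was not counted for either, and it stood at 91.5 on the SOX2 knockdown array and 100.1 on the mock array, a log2 difference of -0.13.

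The RNA helicases of the RIG-I family were higher on the SOX2 knockdown array by less than 2-fold at their brightest probe sets. RIGI stood at 305 on the SOX2 knockdown array and 226 on the mock array at 242961_x_at, a log2 difference of 0.44. Its probe set 222793_at stood at 178 on the SOX2 knockdown array and 63.9 on the mock array, and 218943_s_at at 116 and 64.8 in the same order. The mock value lay just under the floor at both of these, which made RIGI at least 2.59-fold and at least 1.69-fold higher. All 3 probe sets of RIGI pointed the same way, but its difference ranged from 0.44 to 1.47 between them, and the smallest came from a probe set whose suffix marks probes that can match other transcripts. IFIH1 stood at 141 on the SOX2 knockdown array and 99.8 on the mock array at 219209_at, a log2 difference of 0.50. The other 2 probe sets of IFIH1 were under the floor on both arrays, at 18.9 and 13.7 on the SOX2 knockdown array and 16.4 and 16.1 on the mock array. One of them, 216020_at, was the only probe set of the 19 that was lower on the SOX2 knockdown array, at -0.23. DHX58 stood at 116 on the SOX2 knockdown array and 92.1 on the mock array at its single probe set, a log2 difference of 0.34.

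Of the sensors of endosomal RNA and cytosolic DNA, TLR3 and CGAS lay near or under the floor, and the adaptor STING1 differed little between the arrays. TLR3 lay under the floor at all 3 probe sets on both arrays. Its intensities were 55.6, 41.2 and 19.6 on the SOX2 knockdown array and 24.3, 21.4 and 18.4 on the mock array at 239587_at, 206271_at and 242667_at. All 3 were higher on the SOX2 knockdown array as deposited, by 1.20, 0.94 and 0.093 on the log2 scale, but no fold is given with both arrays under the floor. CGAS stood at 80.0 on the SOX2 knockdown array and 17.9 on the mock array at 1559051_s_at, a log2 difference of 2.16 as deposited. With the mock value far under the floor and the other only just above it, the bound for CGAS is at least 1.17-fold. Its other probe sets differed by 0.18 and 0.28, with every value under the floor. STING1, the adaptor downstream of cGAS, stood at 151 on the SOX2 knockdown array and 134 on the mock array at 224929_at, and at 99.2 and 90.2 in the same order at 224916_at. Its differences of 0.17 and 0.14 were the smallest among the member genes that reached the floor, and its probe sets differed from each other by 0.032.

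**Figure D1:**
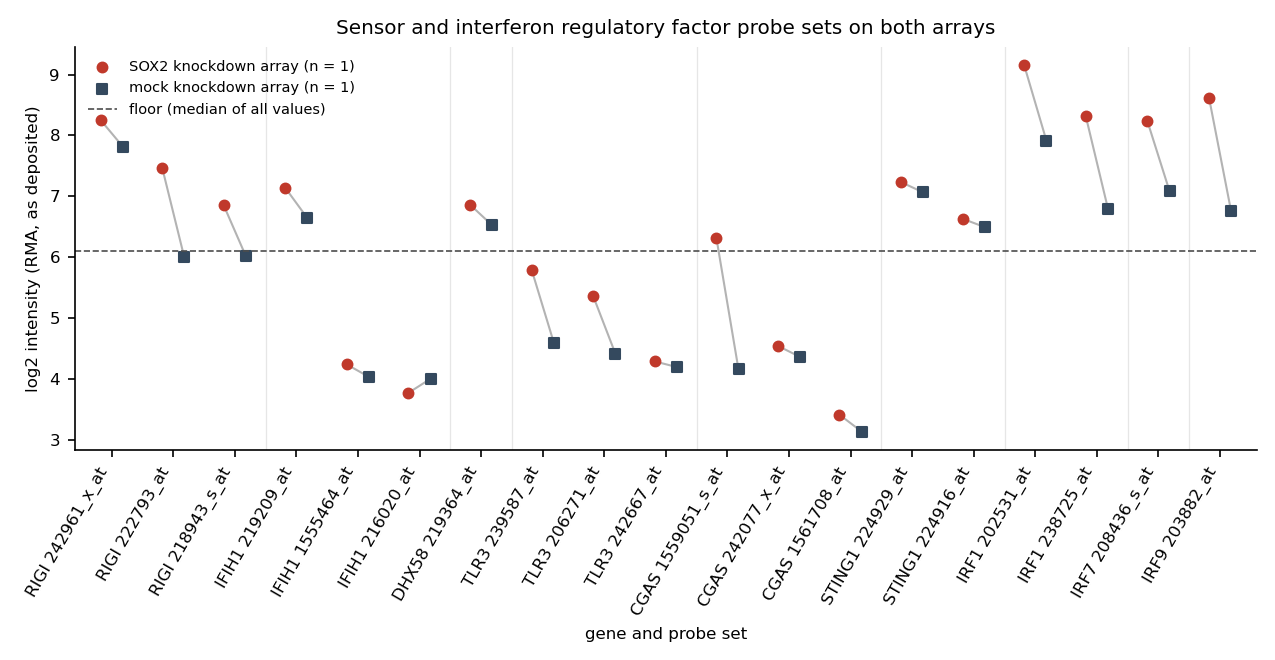
Log2 intensity (vertical axis) of the 19 probe sets of the 9 genes (horizontal axis), with the SOX2 knockdown array as red circles on the left and the mock knockdown array as dark squares on the right of each pair, 1 array each; the dashed line is the floor at 6.10. Both probe sets of IRF1 and those of IRF7 and IRF9 lie above the floor on both arrays with wide gaps, while TLR3 lies wholly under it.

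In all, 18 of the 19 probe sets were higher on the SOX2 knockdown array and 1 was lower. Their median difference was 0.50, and that of all probe sets with 1 symbol was -0.0067. Of the 19, 7 lay under the floor on both arrays. Of the 12 that reached the floor on at least 1 array, all 12 were higher and 6 were at least 2-fold higher, where 8.08% of the 24617 named probe sets that reached it were at least 2-fold higher. Probe sets of 1 gene share its RNA and are not replicates. By gene, 8 of the 9 reached the floor, all but TLR3, and all 8 were higher, where 48.9% of the 13609 genes that reached it were. At least 2-fold higher were 4 of the 8, IRF1, IRF7, IRF9 and CGAS, against 8.44% of those genes, and 0 of the 8 were at least 2-fold lower, against 7.29%. With dimmer values set at the floor the count was 3 of 8, without CGAS, and the background 7.85%. The median log2 difference as deposited was 0.82 over the 8 genes, or 0.47 with values under the floor set at it, and -0.0063 over all genes that reached the floor. Among all genes that reached the floor, 3.49% were higher by more than IRF9, 6.37% by more than IRF1 and 6.95% by more than IRF7, counting the higher side alone. For the sensors, CGAS aside because its mock value lay under the floor, these shares were 17.4% for IFIH1, 19.4% for RIGI, 23.0% for DHX58 and 32.4% for STING1. The pooled SD of differences between probe sets of 1 gene, over 6440 genes with several that reached the floor, was 0.49. The differences of IRF1, IRF7 and IRF9 were more than double that spread, and those of RIGI at its brightest probe set, DHX58 and STING1 were under it. Variation between cultures or between arrays is not part of this spread.

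**Figure D2:**
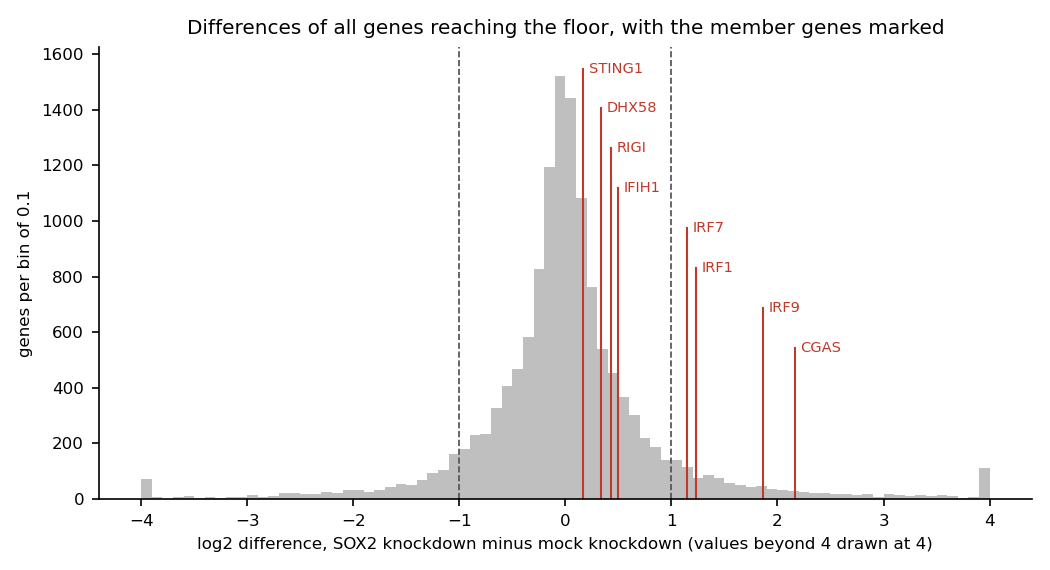
Histogram of log2 differences, SOX2 knockdown minus mock knockdown (horizontal axis, values beyond 4 drawn at 4), of the 13609 genes that reached the floor (vertical axis, genes per bin), with a red line for each of the 8 genes described that reached it (its height has no meaning) and dashed lines at 2-fold. STING1, DHX58, RIGI and IFIH1 lie within 2-fold on the right shoulder, and IRF7, IRF1, IRF9 and CGAS beyond it.

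The other steps of the pathway were followed in 8 further gene lists of 170 genes, of which 158 had a probe set of their own and 123 reached the floor. At least 2-fold higher were 37 of the 123, against 8.44% of all genes that reached the floor, and at least 2-fold lower was 1, against 7.29%. Their median difference was 0.19. Of the 37, 24 were interferon-stimulated effectors. Genes known as interferon-induced were put on such lists for that property, and earlier results of these data were known when the lists were drawn up.

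Among 18 other nucleic acid sensors, 13 reached the floor, 2 were at least 2-fold higher and 1 at least 2-fold lower, with a median of 0.081. These shares were 15.4% and 7.69%, beside 8.44% and 7.29% of all genes that reached the floor. DDX60, a helicase linked to RIG-I signalling, stood at 82.6 on the SOX2 knockdown array and 15.0 on the mock array, at least 1.21-fold higher against the floor. With values under the floor set at it, the count of 2 was 1, without DDX60. ZNFX1, an interferon-induced helicase that binds viral RNA, stood at 804 on the SOX2 knockdown array and 276 on the mock array, a log2 difference of 1.54. DHX33, a helicase with roles in ribosomal RNA synthesis and RNA sensing, went the other way, with 746 on the SOX2 knockdown array and 1534 on the mock array, a log2 difference of -1.04. IFI16, a DNA sensor, was under the floor on both arrays.

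Of 17 adaptors and kinases that reached the floor, 2 passed 2-fold on the higher side, a share of 11.8% beside 8.44% of all genes, and 0 on the lower, and the median was -0.15. RNF135, the ubiquitin ligase Riplet that activates RIG-I, stood at 471 on the SOX2 knockdown array and 14.7 on the mock array, at least 6.88-fold higher. Its other probe set that reached the floor differed by 2.80 as deposited. TANK, a scaffold of the kinases TBK1 and IKBKE, stood at 2001 on the SOX2 knockdown array and 480 on the mock array, a log2 difference of 2.06, and its 3 probe sets that reached the floor ranged from 1.66 to 2.06. MAVS and TBK1, named here after their values were seen because the RIG-I and cGAS routes run through them, differed by -0.30 and 0.17.

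Interferon ligands were at or near background. Of 18 measured, 16 were under the floor on both arrays, IFNB1 among them at 29.9 on the SOX2 knockdown array and 34.4 on the mock array. IFNL1, a type III interferon, differed by 0.29, and IFNA17 by -0.072, with values too close to the floor for a difference to be read. Probe sets for the alpha interferons can share sequence, and their values are uncertain for that reason.

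Of 9 receptors, JAK kinases and STAT factors that reached the floor, 2 passed 2-fold on the higher side and 0 on the lower. The higher share was 22.2%, beside 8.44% higher and 7.29% lower over all genes, and the median was -0.27. IFNGR1, a chain of the interferon gamma receptor, stood at 2497 on the SOX2 knockdown array and 968 on the mock array, a log2 difference of 1.37. STAT3 stood at 983 on the SOX2 knockdown array and 490 on the mock array, a log2 difference of 1.01 at the limit of 2-fold, and its 3 probe sets that reached the floor ranged from 0.68 to 1.08. The count of 2 became 0 with the mean over probe sets. The list of other interferon regulatory factors also held IRF2BP1 and IRF2BP2, which encode proteins that bind IRF2 and are not such factors. They differed by 0.10 and 0.042. Of the genes on this list, 6 reached the floor, IRF2BP1 and IRF2BP2 among them. Past 2-fold were 0 in either direction, with a median of 0.22. The same 8.44% and 7.29% of all genes stand beside that count. IRF3, the factor that TBK1 phosphorylates, stood at 398 on the SOX2 knockdown array and 268 on the mock array, a log2 difference of 0.57. IRF2, which can compete with IRF1, stood at 154 on the SOX2 knockdown array and 113 on the mock array, a log2 difference of 0.44.

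**Figure D3:**
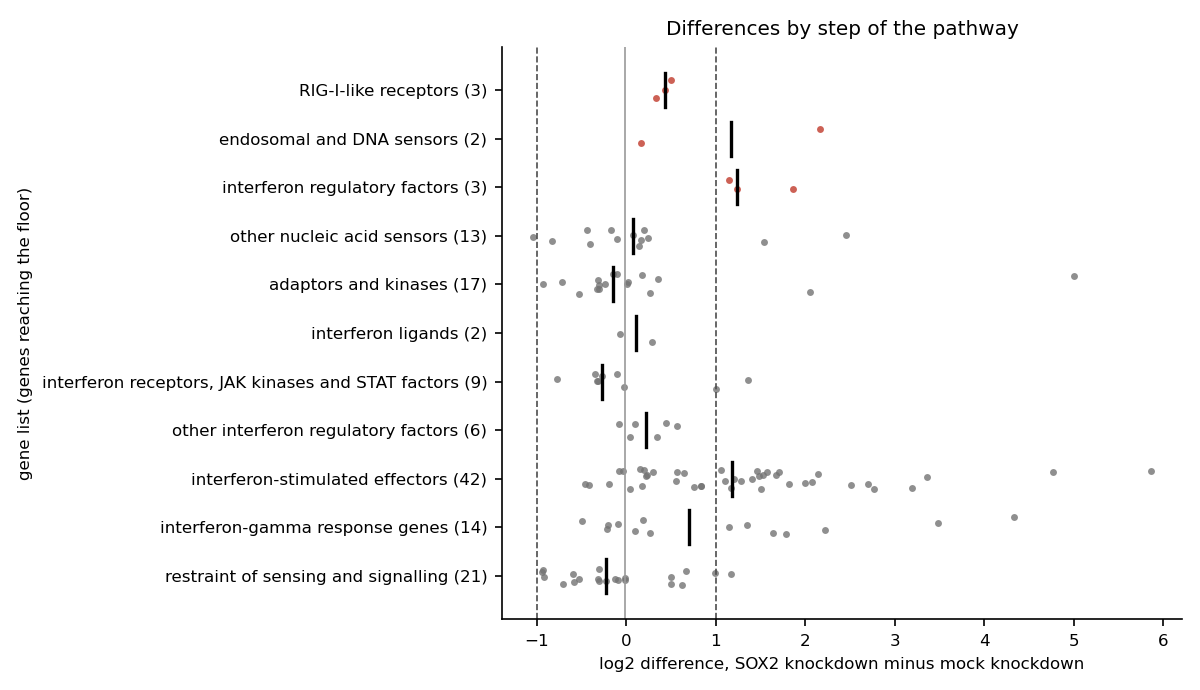
Log2 differences of SOX2 knockdown from mock knockdown (horizontal axis) for genes that reached the floor, by gene list (vertical axis, number of genes in parentheses). Red marks 8 of the 9 genes described, without TLR3, which lay under the floor, and grey marks other genes. Black bars are list medians, the grey line is the median of all genes and dashed lines are at 2-fold. Medians lie at 1.24 for IRF1, IRF7 and IRF9, at 1.19 for the effectors and close to 0 for adaptors and other sensors.

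Interferon-stimulated effectors, the genes that the IRF9 complex is known to switch on, gave the largest count. Of 42 interferon-stimulated effectors that reached the floor, 24 were at least 2-fold higher and 0 at least 2-fold lower, with a median difference of 1.19, against 8.44% higher and 7.29% lower over all genes that reached it. In 7 of the 24 the mock value lay under the floor, and 17 remained when neither array was allowed under it. IFI27, a common marker of interferon exposure, stood at 3094 on the SOX2 knockdown array and 53.2 on the mock array, at least 45.2-fold higher. CMPK2, a nucleotide kinase of mitochondria, stood at 297 on the SOX2 knockdown array and 10.9 on the mock array, at least 4.34-fold higher. BST2, or tetherin, which holds budding viruses at the cell surface, stood at 886 on the SOX2 knockdown array and 86.0 on the mock array, a log2 difference of 3.36. SAMD9, an antiviral factor against poxviruses, stood at 656 on the SOX2 knockdown array and 71.6 on the mock array, a log2 difference of 3.20. The other 18 effectors that reached the floor were within 2-fold, down to -0.46, so the list did not move as one.

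**Figure D4:**
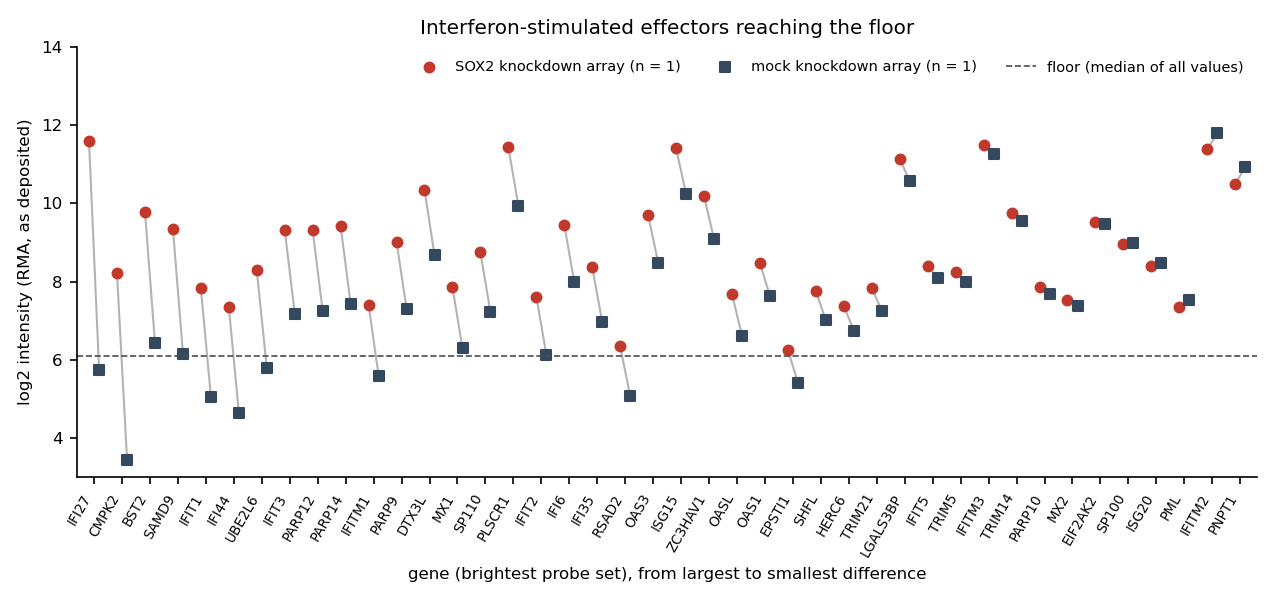
Log2 intensity (vertical axis) of the 42 interferon-stimulated effectors that reached the floor, from the largest to the smallest difference (horizontal axis), with the SOX2 knockdown array as red circles on the left and the mock knockdown array as dark squares on the right of each pair, 1 array each; the dashed line is the floor. The gap narrows from IFI27 at 5.86 as deposited to PNPT1 at -0.46.

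Among genes of the interferon gamma response, 14 reached the floor, 7 were at least 2-fold higher and 0 at least 2-fold lower, with a median of 0.71. The higher share was 50%, where 8.44% of all genes that reached the floor were at least 2-fold higher and 7.29% lower. In 5 of the 7 the mock value lay under the floor. The other 7 that reached the floor were within 2-fold, 4 of them below 0 and down to -0.49, so this list was split. A further 5 measured genes of the list were under the floor on both arrays. TNFSF10, the death receptor ligand TRAIL, stood at 1246 on the SOX2 knockdown array and 61.9 on the mock array, at least 18.2-fold higher. GBP3 and GBP2, which encode interferon-induced GTPases active against intracellular pathogens, were at least 9.75-fold and at least 2.51-fold higher, and APOL6 at least 2.72-fold, though its probe sets that reached the floor ranged from 0.65 to 1.78. Of 21 genes that restrain sensing or signalling, 1 passed 2-fold on the higher side, or 4.76% beside 8.44% of all genes. On the lower side 0 passed it, beside 7.29%, and the median was -0.23. The 1 higher gene was ISG15, a ubiquitin-like modifier that is also on the effector list. It stood at 2717 on the SOX2 knockdown array and 1207 on the mock array, a log2 difference of 1.17.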

How the data were processed

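Biotin-labelled RNA of 2 SW620 cultures was hybridized to 1 array each, per the labels' protocols. Per the submitters' processing notes, RMA gave the deposited intensity; the sources used here do not give its version, its settings or the step to a linear scale. RMA makes the arrays' distributions alike, which hides a shift of all genes, and gives no detection call.

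Of 54675 probe sets, 62 were controls, and the platform annotation gave 1 symbol to 41092 of the others, several to 1800 and none to 11721. A RefSeq table (GRCh38.p14) held 41037 of those with 1 symbol by Entrez identifier and changed 0 symbols. The deposited intensity was put on the log2 scale with no pseudocount. The probe set with the highest mean log2 value stood for a gene, and a gene entered when 1 array reached the floor of 68.5. Having 1 array a group, genes were counted past a limit of 2-fold and not tested. All 9 genes were named, and from each other list up to 4 genes in each direction past 2-fold, or else the 2 with the largest difference. MAVS, TBK1, IFI16, IFNB1, PNPT1, IRF2BP1, IRF2BP2, single cell type markers and genes of the closing section were picked after their values were seen. The genes and lists were chosen with earlier results of these data known. Counting was tested on simulated pairs of arrays, with an SD of 0.49 for the noise of a difference. Of 200 planted changes, 149 were recovered at 2.5-fold and 199 at 4-fold. Of 13558 unchanged genes, 587 or 4.33% were called past 2-fold. The planted genes lay further above the floor on their dimmer array than the 9 genes did. Alternatives were other normalizations, floors, limits, a pseudocount of 32 and other choices of probe set. Protein sequences were not used here. Python 3.11.15, pandas 2.3.3, numpy 2.4.6, statsmodels 0.14.6 and matplotlib 3.10.9 were used.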

Additional observations from a re-analysis of the deposited data

How the results depend on the processing

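With 1 array a group, no replicate could be left out, and no paired analysis was possible because each group held a single array. Median centring, quantile normalization and intensity-dependent centring left the count of the 9 genes at least 2-fold higher at 4, and the same 4 genes passed. That count ranged from 2 with a limit of 3-fold (CGAS and IRF9) to 5 with no floor, where TLR3 entered. The shares of all genes entering were 4.44% and 6.03% in the same order. IRF7 was under the limit with a pseudocount of 32, at 0.99, and has no value without probe sets ending in _s_at or _x_at. In that setting RIGI differed by 1.47 and CGAS, at 0.28, no longer entered. CGAS differed by 0.22 with low values raised to the floor and by 0.87 as the mean over its probe sets. IRF1 kept to a range of 1.14 to 1.38 and IRF9 of 1.61 to 1.89 over 8 alternatives each. None of the 9 genes was at least 2-fold lower in any of the 13 alternatives. Over the 8 other lists, the 37 genes at least 2-fold higher became 24 without _s_at and _x_at probe sets. They became 23 with both arrays above the floor and 21 with a limit of 3-fold. The shares of all genes entering were 8.48%, 6.68% and 4.44% in the same order. The 1 lower gene became 10 with a limit of 1.5-fold and 0 with 3-fold. Of all genes entering, 14.8% and 3.43% were lower by those limits. The 2 receptor, kinase and STAT genes became 0 with the mean over probe sets or a limit of 3-fold, and 1 with quantile normalization, a pseudocount of 32, the probe set with the smallest difference or no _s_at and _x_at probe sets. Among interferon gamma response genes the count of 7 became 2, and the median 0.14, with both arrays above the floor. The 2 other sensors at least 2-fold higher became 0 without _s_at and _x_at probe sets. They became 1 with low values raised to the floor, the floor at the 75th percentile, both arrays above the floor or a limit of 3-fold. The median of the other sensors turned to -0.046 without _s_at and _x_at probe sets, -0.14 with the floor at the 75th percentile and -0.012 with both arrays above the floor, and that of the ligands to -0.078 with no floor and -0.072 with both arrays above it. Fewer genes entered in the settings with a stricter floor, and otherwise the cause was not tested.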

Other observations

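The 3 subunit genes of RNase H2, an enzyme that removes ribonucleotides from DNA and whose loss is known to feed the cGAS route, were all lower on the SOX2 knockdown array, and were picked out after their values were seen. RNASEH2A stood at 816 on the SOX2 knockdown array and 1555 on the mock array, a log2 difference of -0.93. RNASEH2B stood at 222 on the SOX2 knockdown array and 425 on the mock array, a log2 difference of -0.94, with its 3 probe sets that reached the floor between -0.94 and -0.32. RNASEH2C stood at 477 on the SOX2 knockdown array and 777 on the mock array, a log2 difference of -0.71, and its 2 probe sets ranged from -0.71 to -0.12. None of the 3 was past 2-fold. Of the 13609 genes that reached the floor, 6877 were lower by any amount and 14.8% were at least 1.5-fold lower. Whether these differences bear on the cGAS route was not tested. CD14, a co-receptor of bacterial lipopolysaccharide, stood at 156 on the SOX2 knockdown array and 43.6 on the mock array, at least 2.28-fold higher, while PTPRC was under the floor on both arrays.

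Families within the effector list were uneven, as seen once their values were known. Over all genes that reached the floor, 8.44% were at least 2-fold higher. Of the IFIT genes, whose products bind foreign RNA, 3 of 4 were at least 2-fold higher, IFIT1 by at least 3.32-fold and IFIT3 by 2.14 on the log2 scale (0.96 at its other probe set), while IFIT5 differed by 0.30. IFIT2 differed by 1.49 at its brightest probe set and by -0.17 at another. Of the 2′-5′ oligoadenylate synthetase genes that reached the floor, 2 of 3 were at least 2-fold higher, OAS3 at 1.20 and OASL at 1.06, with OAS1 at 0.84. Their other probe sets that reached the floor differed by 0.41 for OAS3, 1.65 for OASL and 1.29 for OAS1, so which of them passed turned on the probe set, and OAS2 was under the floor on both arrays. Of the IFITM genes, whose products block virus entry, IFITM1 was at least 2.48-fold higher, while IFITM3 differed by 0.23 and IFITM2 by -0.41.

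Of 41 effector genes with a start window at hand, 28 held the response element core, or 68.3%. Of all windows 3.65% did, and 2.61% of those of genes that reached the floor. The interferon gamma response list held the core in 8 of 11 windows, or 72.7%. Genes of both lists were put there because they are known as interferon-induced. Among effectors that reached the floor, the core was in 16 of the 22 windows of genes at least 2-fold higher and in 10 of the 14 windows of genes within 2-fold. These are shares of 72.7% and 71.4%. The median difference was 1.49 over the 26 effectors with the core and 1.20 over the 10 without it. None of these shares was tested.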
